A study of Homo sapiens with 12 samples.

Results

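Expression of 9 genes around the tumor suppressor p53 was followed in LN229, an established human glioblastoma cell line, with and without metformin, a biguanide used against type 2 diabetes. The members were the rows named MDM2, MDM4, CDKN1A, GDF15, PHLDA3, TP53INP1, ZMAT3, PLK2 and PPM1D, 9 of the 21446 genes in the deposited tables. RNA was sequenced from 6 control cultures and from 6 cultures given 100 mM metformin for 5 h, and the paper describes them as independent experiments. The labels call the controls untreated and a figure legend of the paper calls them vehicle. All 12 cultures were the 1 line LN229, labelled IDH wildtype, in DMEM with serum. The labels give no p53 genotype, but the paper lists LN229 with a changed p53 codon. What the p53 protein of LN229 can do was not measured here.

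The p53 protein is a transcription factor that is held low in unstressed cells. MDM2, an E3 ubiquitin ligase, marks it for degradation, and MDM4, a relative of MDM2, binds p53 and blocks its activation domain. Under DNA damage and many other stresses p53 accumulates and turns on genes that halt the cell cycle, repair DNA or kill the cell, together with genes that shut p53 down again. CDKN1A encodes p21, which halts the cycle by binding cyclin-dependent kinases, and MDM2 and PPM1D close negative feedback loops. Several of these genes can also be switched on without p53, for example through ATF4, the factor of the integrated stress response, so their RNA alone does not report p53 activity.

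In all 12 libraries the cells carried vimentin (VIM), CD44, nestin (NES), EGFR and OLIG2 RNA, with control means from 7.72 TPM for OLIG2 to 920 TPM for VIM, where TPM is the deposited expression value, a share of all gene RNA corrected for exon length. The other 5 of 10 glioblastoma and astroglia markers (GFAP, S100B, SOX2, CHI3L1 and FABP7) had control means of at most 0.0712 TPM. PTPRC, PECAM1, VWF, MBP and MOG, which mark blood, endothelial and oligodendrocyte cells, had control means of at most 0.0902 TPM. The other 5 of the 10 markers of other cells were above that, with CD68 at 21.7 TPM, RBFOX3 at 6.31, COL1A1 at 2.94, PDGFRB at 1.58 and SNAP25 at 0.28. Exon reads totalled 19583535 to 21836186 per control library. The metformin libraries held 18525144 to 19516144, apart from metformin replicate 1 with 14331617. That library stood apart in most of what follows, and for the 9 genes each call that it changed is given with and without it.

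Among the start-site sequences of the members, the closest match to a p53 binding motif lay in the inner promoter of MDM2. This promoter lies in the first intron of the longer MDM2 transcripts. RefSeq gives start-site windows of 300 bases (250 before and 50 after each start, build GRCh38.p14) for 7 of the 9 genes, 11 windows in all. The windows were searched for the p53 response element, a tandem pair of 10-base motifs, written as a consensus with several bases allowed at most positions. Only the windows of the inner MDM2 starts and the window of GDF15 held the element with at most 3 mismatches in 20 bases, a property of 5.20% of all 35116 windows. The stretch before the inner MDM2 start is shown because it held 2 such elements, with 2 and 3 mismatches, and 0.649% of all windows held one with at most 2. In the stretch, chr12:68808817-68809016 on the plus strand, capitals mark first an AP-1 site (TGACTCA, or TGAGTCA on the other strand, found in 4.95% of windows) and then the 2 p53-like elements. Its last bases overlap the first exon of 1 annotated transcript.
MDM2 inner promoter: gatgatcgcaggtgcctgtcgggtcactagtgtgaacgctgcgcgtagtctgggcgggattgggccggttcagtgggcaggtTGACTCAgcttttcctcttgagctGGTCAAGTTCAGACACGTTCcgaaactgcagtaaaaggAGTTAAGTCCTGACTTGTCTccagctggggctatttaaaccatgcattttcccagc

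The GDF15 element lay just after the RefSeq start, at chr19:18386186-18386205 on the plus strand, and is shown with the bases that fit the consensus in capitals.
GDF15 p53-like element: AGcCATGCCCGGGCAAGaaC

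PPM1D, the member with the largest fold change in TPM, is shown for another reason. Its window held no p53-like element at that threshold but a cyclic AMP response element (TGACGTCA, the same on both strands), which 1.85% of windows held. This element is in capitals within the printed stretch, chr17:60600102-60600169 on the plus strand. The C/EBP-ATF response element (TGATGNAAN, both strands) was in 3.61% of windows and in none of the members' 11.
PPM1D promoter: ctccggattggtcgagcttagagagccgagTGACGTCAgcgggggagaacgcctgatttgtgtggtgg
These matches describe letters in the reference genome. Neither p53 nor any other factor was measured on the DNA in these libraries, and a window without a match may have its sites elsewhere.

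The 9 genes covered a wide range of levels in control cells. CDKN1A was the most abundant member with a control mean of 346 TPM ± 6.79 (SD, n = 6), rank 345 of all genes, followed by PLK2 with 263 TPM ± 16.6 and GDF15 with 108 TPM ± 10.1. PHLDA3 (68.0 TPM ± 3.26) and MDM2 (57.3 TPM ± 7.67) were neighbours whose libraries overlapped. ZMAT3 (29.3 TPM ± 6.75), PPM1D (13.7 TPM ± 1.98), MDM4 (10.5 TPM ± 0.892) and TP53INP1 (4.73 TPM ± 0.787) followed, each with libraries that did not overlap those of the next. After metformin PPM1D moved from rank 6844 to rank 1921 of all genes, and MDM4 took the last place among the 9.

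Expression was compared as log2(TPM + 1) with limma over 11306 genes (mean TPM of 1 or more), and fold changes on this scale understate the change of low genes. All 9 members passed that filter. At an adjusted p under 0.05, 5 of the 9 were higher after metformin (CDKN1A, GDF15, PHLDA3, TP53INP1 and PPM1D) and 1 was lower (MDM4). Of all genes tested 8.00% were higher and 41.8% were lower. TPM is a share, so a gene can fall in TPM because other RNA rose, and less RNA per cell cannot be told apart from fewer cells. Over all genes the median log2 fold change was -0.37 in TPM, and 0.02 after median-ratio scaling, in which the typical gene keeps its level from library to library. With that scaling 8 members were higher and 1 was lower, among 23.4% and 25.5% of all genes. The exon read counts tested with edgeR gave the same 8 and 1, with 24.5% and 26.0% of all genes called higher and lower. Without metformin replicate 1, the TPM test also gave 8 and 1, with backgrounds of 17.1% and 49.5%.

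**Figure D1:**
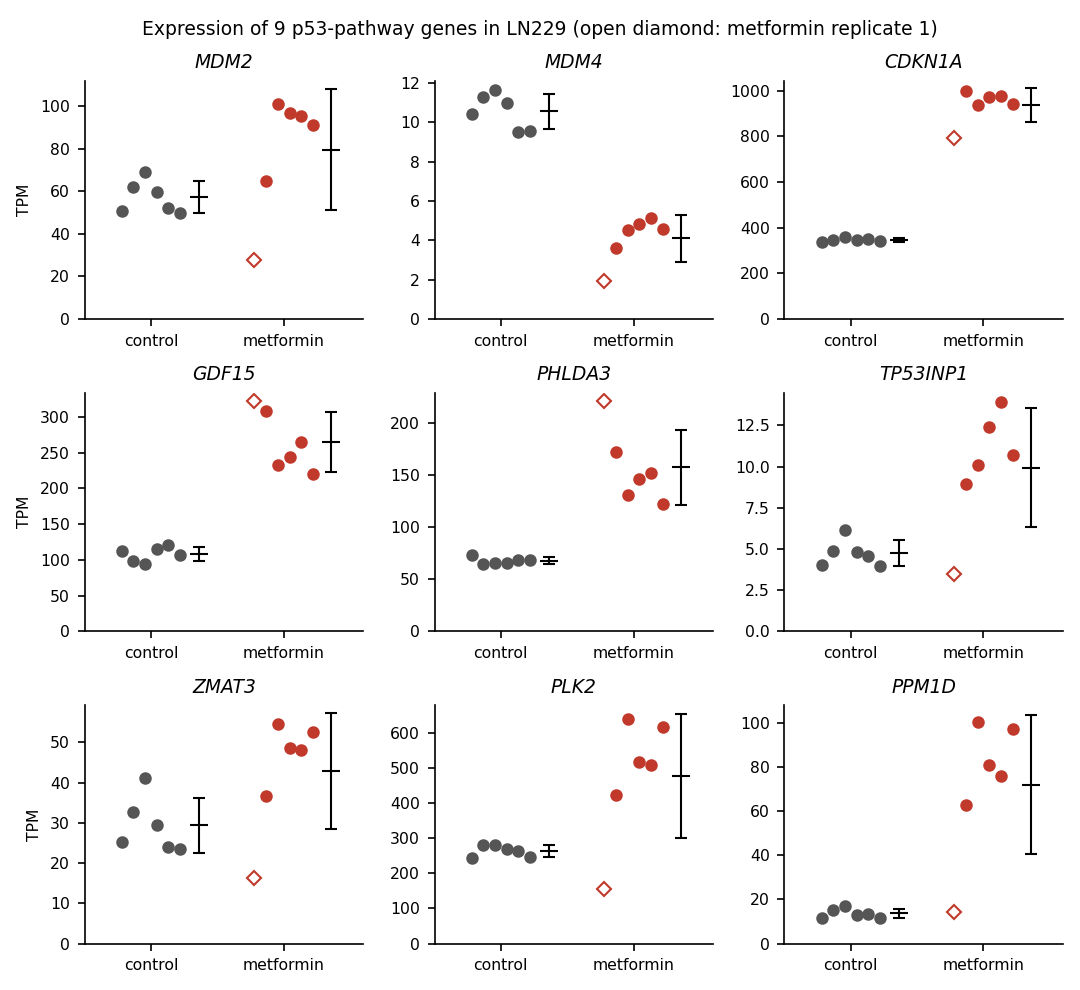
TPM of each gene in the 6 control (grey) and 6 metformin (red) libraries, with the mean and SD beside each group (n = 6) and metformin replicate 1 as an open diamond. CDKN1A, GDF15 and PHLDA3 were higher in every metformin library than in any control library and MDM4 was lower in every one, while in the other 5 genes metformin replicate 1 lay within or below the controls.

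In 3 members (CDKN1A, GDF15 and PHLDA3) every metformin library was above every control library, which 4.69% of all genes tested showed. In MDM4 every metformin library was below every control, which 37.3% of genes showed. With metformin replicate 1 left aside, TP53INP1, PLK2 and PPM1D were also wholly above the controls, which made 6 members higher and 1 lower against 11.0% and 39.3% of all genes. MDM2 and ZMAT3 overlapped the controls through metformin replicate 2, which had the second lowest MDM2 and ZMAT3 levels of the metformin group.

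The members that act directly on the cell cycle were CDKN1A, which rose, and PLK2, which did not pass with all libraries. CDKN1A (ENSG00000124762, chr6:36676460-36687339, 11 exons) ranged from 338 to 357 TPM in control libraries (median 345) and from 793 to 997 in metformin libraries (median 955). Metformin replicate 1 was its lowest treated library and still lay far above the highest control. The log2 fold change was 1.43 (SE 0.061, limma adjusted p = 4.6e-09), a 2.70-fold rise of the mean. PLK2 (ENSG00000145632, chr5:58453982-58460139), a polo-like kinase that acts early in the cycle and on centrioles, ranged from 243 to 281 TPM in controls (median 265) and from 154 to 639.6 in metformin libraries (median 513). Its 154 was metformin replicate 1, below every control, and the other metformin libraries began at 424. With all 12 libraries the log2 fold change of PLK2 was 0.72 (SE 0.29) and its limma adjusted p of 0.052 missed the threshold, whereas without metformin replicate 1 it was 1.02 with an adjusted p of 8.1e-07.

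Of the members that restrain p53, PPM1D rose, MDM4 fell and MDM2 did not pass in TPM. PPM1D (ENSG00000170836, chr17:60600183-60666280), which encodes the phosphatase WIP1 that removes activating phosphates from p53 and from the kinases upstream of it, ranged from 11.7 to 16.9 TPM in controls (median 13.3) and from 14.3 to 101 in metformin libraries (median 78.3). The lowest of these was again metformin replicate 1, within the control range, and the next was 62.7 TPM. The log2 fold change was 2.11 (SE 0.39, limma adjusted p = 0.00067) with all libraries and 2.52 without metformin replicate 1, and the mean rose 5.27-fold and 6.11-fold. MDM4 (ENSG00000198625, chr1:204516379-204558120) went the other way, from 9.50 to 11.6 TPM in controls (median 10.7) to 1.91 to 5.14 in metformin libraries (median 4.57). Its log2 fold change was -1.22 (SE 0.17, limma adjusted p = 6.8e-05), and it was -0.85 after median-ratio scaling, so MDM4 fell by more than the median gene on both scales. MDM2 (ENSG00000135679, chr12:68808177-68850686) ranged from 50.02 to 69.2 TPM in controls (median 55.9) and from 27.7 to 101 in metformin libraries (median 93.3). Metformin replicate 1 was below every control, replicate 2 (64.8 TPM) lay within the control range, and replicates 3 to 6 were above it. The MDM2 log2 fold change of 0.36 (SE 0.28) did not pass (limma adjusted p = 0.30). It was 0.63 (adjusted p = 0.00043) without metformin replicate 1, 0.79 (adjusted p = 0.00015) after median-ratio scaling and 0.79 (adjusted p = 0.00023) in edgeR on exon reads.

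The ratio of MDM2 to MDM4 was less affected by the library that stood apart. It ranged from 4.87 to 5.96 in TPM units in control libraries and from 14.5 in metformin replicate 1 to 22.2 in metformin libraries, with no overlap, and is given as a description. The p53 relatives TP63 and TP73 were under the filter, with at most 0.0957 and 0.41 TPM in any library. MDM1, which shares only a naming history with MDM2 and MDM4 and encodes a microtubule-binding protein, fell by 1.11 (log2), with a mean of 5.41 TPM in controls and 2.10 TPM after metformin.

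The other 4 members were a secreted factor and 3 intracellular p53 targets. GDF15 (ENSG00000130513, chr19:18374731-18389176), a stress cytokine of the TGF-beta superfamily that is also a target of the integrated stress response, ranged from 94.2 to 121 TPM in controls (median 110.0) and from 219 to 322 after metformin (median 254). The log2 fold change of GDF15 was 1.28 (SE 0.11, limma adjusted p = 8.7e-07), and the highest library was metformin replicate 1. PHLDA3 (ENSG00000174307, chr1:201464278-201469237), a pleckstrin-homology protein that competes with AKT for membrane lipids, ranged from 64.9 to 73.7 TPM in controls (median 67.2) and from 122 to 221 after metformin (median 150). Its log2 fold change was 1.17 (SE 0.13, limma adjusted p = 7.6e-06), and again metformin replicate 1 was the highest library. TP53INP1 (ENSG00000164938, chr8:94925972-94949378), a nuclear protein that helps p53 gain a pro-apoptotic phosphorylation, was the scarcest target. It ranged from 3.95 to 6.13 TPM in controls (median 4.69) and from 3.49 in metformin replicate 1 to 13.9 (median 10.4), with a log2 fold change of 0.85 (SE 0.25, limma adjusted p = 0.013). ZMAT3 (ENSG00000172667, chr3:178960121-179072215), a zinc finger protein that binds RNA, ranged from 23.5 to 41.1 TPM in controls (median 27.4) and from 16.2 to 54.6 after metformin (median 48.3). The ZMAT3 log2 fold change of 0.46 (SE 0.27) did not pass with all libraries (limma adjusted p = 0.17) and was 0.71 (adjusted p = 0.00079) without metformin replicate 1.

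Metformin replicate 1 differed from the rest in where its reads fell. Of 100 exon reads, 38.1 crossed a junction between exons in this library, against 44.7 to 48.1 in the other 11. In CDKN1A the figure was 0.87 there against 8.87 to 13.0 in the other metformin libraries and 9.83 to 13.6 in controls. In MDM2 it was 0.33 against 3.16 to 12.1 and 5.97 to 16.1, and in PLK2 13.8 against 48.5 to 57.6 and 50.6 to 57.9. The members were not alone in this. Among 7327 genes with at least 100 exon reads in every metformin library and at least 5 junction reads per 100 exon reads, the median ratio of metformin replicate 1 to the median of the other metformin libraries was 0.36, and 63.7% of the genes were under 0.5. The ratio was 0.034 for MDM2, 0.076 for CDKN1A and 0.25 to 0.47 for 6 other members. TP53INP1, with 4 to 22 junction reads per library, stood at 0.98. Controls also varied. Control replicate 3 had the highest junction figure of the control group in MDM2 and the highest MDM2 TPM of that group. The part of this shift in the expression results was not tested, and CDKN1A, GDF15, PHLDA3, PPM1D, TP53INP1 and MDM4 kept their direction and their call without that library.

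**Figure D2:**
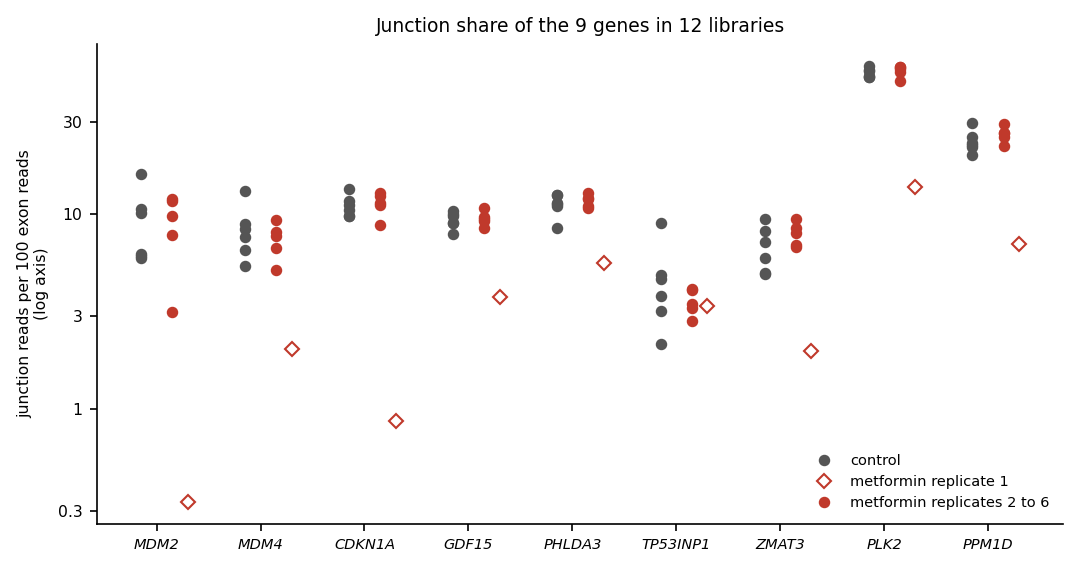
Junction reads per 100 exon reads (log axis) of the 9 genes in each control library (grey), in metformin replicates 2 to 6 (red) and in metformin replicate 1 (open diamond). Metformin replicate 1 lay below all other metformin libraries for every gene shown but TP53INP1, down to 0.33 in MDM2.

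Reads in introns come mostly from RNA that is not yet spliced, and they were counted apart from exon reads. They were tested with edgeR over 11118 genes (10 or more intron reads on average), where 31.3% of genes were called higher and 30.2% lower. Of the 9 members 7 were higher and 1, MDM4, was lower. Among the 7, TP53INP1 entered the test only through its reads in metformin libraries. Levels are given as normalised intron reads, the intron reads of a gene per 1000000 intron reads of the library. Those of CDKN1A ranged from 102 to 137 in controls (median 131) and from 452 to 994 in metformin libraries (median 578), with a log2 fold change of 2.61 (SE 0.22, edgeR adjusted p = 2.5e-07). No metformin library overlapped the controls, and metformin replicate 1 was the highest. MDM2, whose TPM did not pass, ranged from 43.9 to 97.0 in controls (median 65.6) and from 119 to 314 after metformin (median 213), again without overlap and with metformin replicate 1 highest. Its log2 fold change in intron reads was 1.93 (SE 0.25, edgeR adjusted p = 9.5e-06). PPM1D intron reads ranged from 15.4 to 24.0 in controls (median 17.4) and from 55.9 to 140 after metformin (median 86.9), with a log2 fold change of 2.47 (SE 0.24, edgeR adjusted p = 7.0e-07).

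Of the other 6 members 4 rose in intron reads, MDM4 fell and PLK2 did not pass. ZMAT3 intron reads rose from a control range of 94.1 to 121 normalised reads to 187 to 273, a log2 fold change of 1.39 (edgeR adjusted p = 1.9e-07). PHLDA3 rose by 1.95 (adjusted p = 5.6e-07) and GDF15 by 1.46 (adjusted p = 7.4e-05) on the log2 scale, and in both genes every metformin library was above every control. MDM4 intron reads fell by 1.48 (edgeR adjusted p = 0.00023), from 19.2 to 37.3 normalised reads in controls to 3.22 to 13.8. TP53INP1 rose by 1.92 (edgeR adjusted p = 0.00098) on only 0 to 24 intron reads per library. It averaged 4.83 intron reads in controls and 15.2 after metformin, so only its metformin reads brought it to the filter of 10. Its call is therefore given as a description. PLK2 was the exception, since metformin replicate 1 held 16.1 normalised intron reads while the other metformin libraries held 138 to 173 and controls 90.5 to 106. The PLK2 log2 fold change of 0.65 did not pass with all libraries (edgeR adjusted p = 0.087) and was 0.88 (adjusted p = 1.9e-07) without metformin replicate 1.

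**Figure D3:**
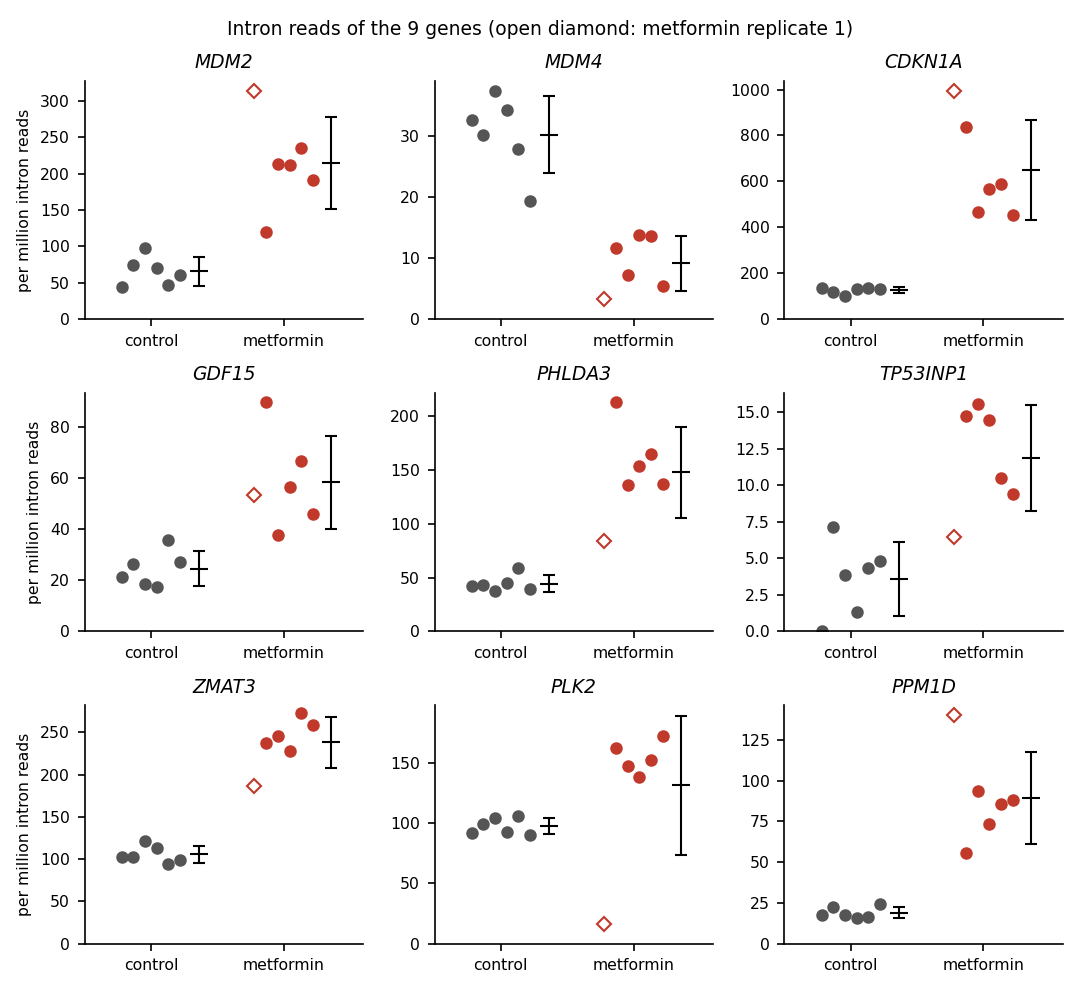
Normalised intron reads (intron reads of the gene per 1000000 intron reads of the library) of each gene in control (grey) and metformin (red) libraries, with the mean and SD of each group (n = 6) and metformin replicate 1 as an open diamond. In MDM2, CDKN1A and PPM1D metformin replicate 1 was the highest library, whereas in PLK2 it fell to 16.1, below all controls.

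Junction reads, which come from spliced RNA, were tested the same way over 10426 genes, of which 12.4% were called higher and 16.0% lower. Again 7 members were higher and MDM4 was lower. PPM1D rose most, by 2.73 on the log2 scale (SE 0.30, edgeR adjusted p = 2.9e-05), from 98 to 175 junction reads per control library to 547 to 1003 in metformin replicates 2 to 6 and 38 in replicate 1. PHLDA3 rose by 1.86, GDF15 by 1.78, CDKN1A by 1.54, PLK2 by 1.11, TP53INP1 by 1.07 and ZMAT3 by 0.99, with adjusted p from 0.00035 to 0.021. Without metformin replicate 1 these were 1.37, 1.49, 1.73, 1.28, 1.03 and 1.13 in the same order. That library held 129 junction reads of CDKN1A, against 680 to 854 in controls. It held 451 of PLK2 against 2850 to 3464, and 27 of ZMAT3 against 113 to 309. MDM4 fell by 1.22 (adjusted p = 0.00079). MDM2 did not pass (0.56, SE 0.53, edgeR adjusted p = 0.45). It had 338 to 1018 junction reads in controls, 9 in metformin replicate 1, 206 in replicate 2 and 717 to 1080 in replicates 3 to 6. MDM2 still did not pass in junction reads without metformin replicate 1 (0.81, adjusted p = 0.070).

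**Figure D4:**
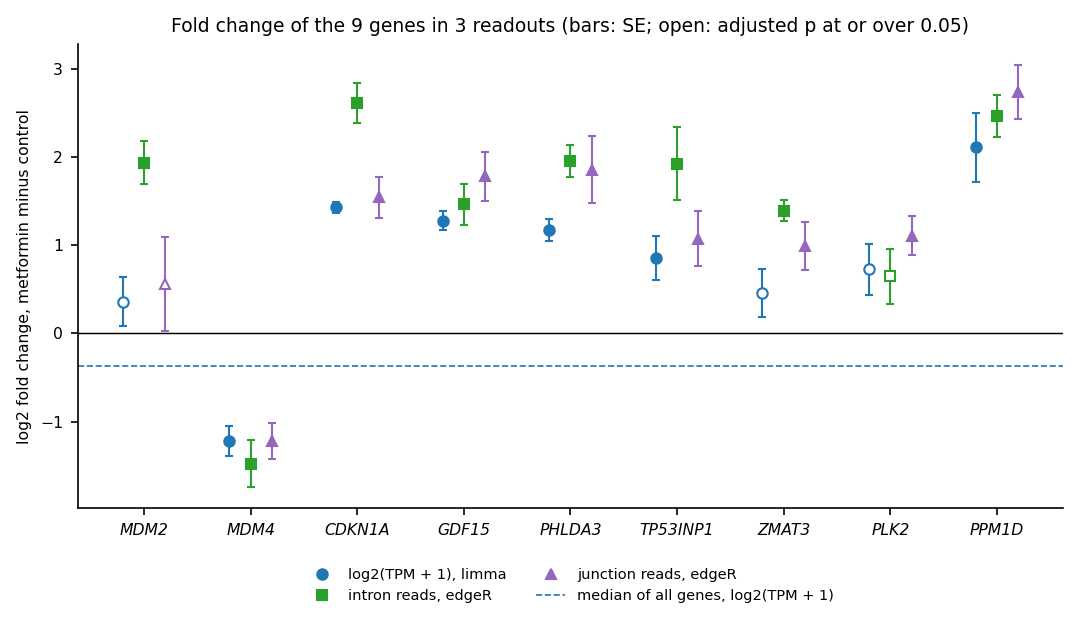
Log2 fold change (metformin minus control, n = 6 in each group) with its SE for each gene in TPM, in intron reads and in junction reads, with open symbols where the adjusted p was at or over 0.05 and the dashed line at the median of all genes in TPM (-0.37). MDM4 was the only gene below 0, and MDM2 showed the widest gap between intron reads (1.93) and TPM (0.36).

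The number of intron reads per exon read within a gene does not depend on how libraries are scaled to each other. It was tested with limma over 10363 genes, of which 18.4% were called higher and 13.6% lower. The median log2 difference over all genes was 0.11. Differences in the intron share of whole libraries were not removed from it. That share was 5.42 to 7.95 intron reads per 100 exon reads in control libraries. In metformin libraries it was 4.33 in replicate 1 and up to 8.09. The ratio within a gene was higher after metformin in 3 members, and in none was it called lower. For MDM2 it went from 0.93 to 2.39 intron reads per 100 exon reads in controls to 1.73 to 7.23 after metformin, a log2 difference of 1.31 (SE 0.33, limma adjusted p = 0.0086). For CDKN1A it went from 2.12 to 2.66 in controls to 4.10 to 4.57, without overlap, a log2 difference of 0.86 (SE 0.16, adjusted p = 0.0012). For ZMAT3 it went from 4.70 to 6.07 to 7.02 to 9.34, also without overlap, a log2 difference of 0.67 (SE 0.16, adjusted p = 0.0061). PHLDA3 passed only without metformin replicate 1, at 0.93 (adjusted p = 0.00073) against 0.49 (adjusted p = 0.42) with it. In PPM1D and GDF15 the difference was within 1 SE of 0 (-0.02, SE 0.38, and -0.08, SE 0.31), so intron and exon reads of these genes rose by amounts that could not be told apart. In PPM1D this value leaned on metformin replicate 1, with 16.2 intron reads per 100 exon reads against 2.17 to 4.21 in the other metformin libraries. Without that library the differences were -0.39 for PPM1D and 0.18 for GDF15, and neither passed (limma adjusted p = 0.12 and 0.43). In MDM4 the difference was -0.40 (SE 0.31, adjusted p = 0.35), in PLK2 -0.62 (SE 0.41, adjusted p = 0.27) and in TP53INP1 1.05 (SE 0.58, adjusted p = 0.19).

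Reads of neighbouring genes could enter some of these counts, since the sources used here do not say whether strand was used in counting. CPM, a carboxypeptidase gene that runs against MDM2 and overlaps its 3′ end, went from a control mean of 1.02 TPM to 4.55, and its exon reads were 0.743% to 1.22% of those of MDM2 in controls and 2.57% to 3.55% in metformin libraries. Normalised CPM intron reads went from a mean of 40.7 in controls to 244 after metformin (log2 fold change 2.81, edgeR adjusted p = 6.7e-07), against 65.5 and 214 for MDM2, and their part in the MDM2 intron reads and intron to exon difference was not tested. TP53INP1 lies wholly within NDUFAF6 on the other strand, and NDUFAF6 went from a control median of 14.8 TPM to 12.6, opposite to TP53INP1. DINOL lies against the start of CDKN1A, and MIR3189 lies inside GDF15. The reads of all 9 genes were at least 99.8% uniquely placed.

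Other p53 targets were read from lists of genes sorted by function, and their counts are read against 8.00% higher, 41.8% lower and a median of -0.37 over all genes tested. Of 15 measured arrest and feedback targets 7 were higher and 1 was lower, with a median log2 fold change of 0.30. CCNG2, an atypical cyclin, rose by 2.36 from a control mean of 4.35 TPM to 31.9, with metformin replicate 1 at 4.36. SESN2, a stress-induced inhibitor of mTORC1, rose by 1.64 from 27.3 to 87.8 TPM, and GADD45A, a growth arrest protein, by 1.27 from 77.2 to 198 TPM. GADD45A was at 81.6 TPM in metformin replicate 1, within the control range of 71.0 to 84.6. COP1, another ubiquitin ligase of p53, fell by 0.60 in TPM, and its difference after median-ratio scaling was -0.18 (adjusted p = 0.12). CCNG1, a strong p53 target that binds MDM2, had 200.2 TPM in controls and 274 after metformin and did not pass (0.29, limma adjusted p = 0.49), but was at 69.2 TPM in metformin replicate 1 and passed without it (0.65, adjusted p = 1.4e-05).

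Of 16 measured apoptosis targets 4 were higher and 3 lower, with a median of -0.11. BBC3, which encodes the BCL2-family killer PUMA, rose by 1.28 from 19.3 to 48.4 TPM. AEN, an apoptosis nuclease, rose by 1.19 and DRAM1, a lysosomal protein of autophagy, by 0.53. DRAM1 was at 27.2 TPM in metformin replicate 1, within the control range of 24.4 to 30.5. TP53I3, PIDD1 and STEAP3 were lower by 0.54, 0.34 and 0.46 on the log2 scale of TPM, and none of these 3 passed after median-ratio scaling. Of 16 measured repair and metabolism targets 3 were higher and 7 lower, with a median of -0.32. TSPYL2 rose by 1.74, POLH, the DNA polymerase that copies past ultraviolet lesions, by 0.97, and DDB2, which finds such lesions, by 0.37. POLH was at 23.5 TPM in metformin replicate 1, within the control range of 19.6 to 28.1. XPC, which recognises damage for nucleotide excision repair, fell by 1.77, PRKAB1, an AMPK subunit, by 1.39 and ASTN2 by 0.59, and all 3 also fell after median-ratio scaling, XPC by 1.38.

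**Figure D5:**
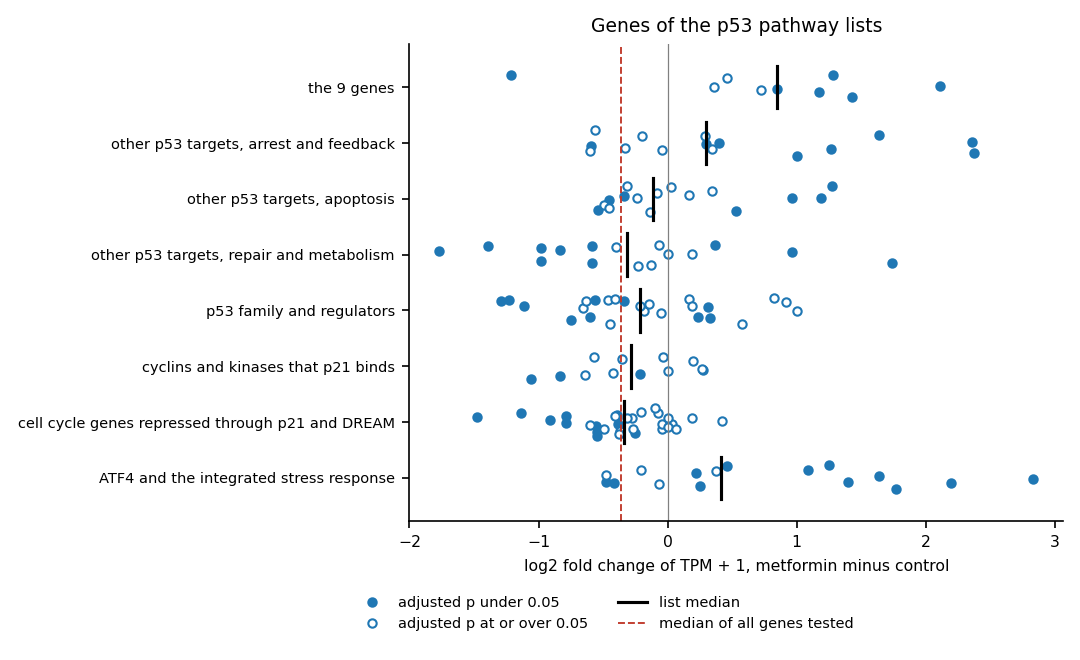
Log2 fold change of TPM + 1 (metformin minus control) for every measured gene of each p53 pathway list, with filled points at an adjusted p under 0.05, a black bar at the list median and a dashed line at the median of all 11306 genes (-0.37). The 9 genes had a median of 0.85, the ATF4 list 0.42 and the other arrest and feedback targets 0.30, while the DREAM list sat at -0.34.

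Among 25 measured members of the p53 family and its regulators 3 were higher and 7 lower, with a median of -0.22. Median-ratio scaling changed this to 12 higher and 4 lower, where 23.4% and 25.5% of all genes were higher and lower. The 3 that were higher in TPM were the ribosomal proteins RPL5 (0.23), RPL11 (0.33) and RPL23 (0.32), which can bind and block MDM2. CHEK2, the checkpoint kinase that phosphorylates p53, was lower by 0.60 and BANP, a nuclear matrix protein that binds p53, by 0.56, and neither passed after scaling. Downstream of p21, 12 cyclins, kinases and partners that it binds gave 0 higher and 3 lower, with a median of -0.28. CCNA2, the cyclin of S phase, fell by 1.06 from 175 to 89.1 TPM and CCND1, a cyclin of G1, by 0.83 from 203 to 116 TPM, and both were also lower after scaling. CDK4 was lower by 0.21 in TPM and higher by 0.23 after scaling, where it did not pass. CDK2 (-0.35), CCNE1 (0.19) and PCNA (0.27) did not pass in TPM, and CCNE1 and PCNA passed as higher after scaling and also without metformin replicate 1 (0.32, adjusted p = 0.0049, and 0.46, adjusted p = 1.2e-06).

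Of 30 genes that p21 represses through the DREAM complex 0 were higher and 11 lower, with a median of -0.34, close to that of all genes. Among those with the smallest p were E2F2 (-1.47), an activating E2F factor, and CCNB2 (-0.55), a mitotic cyclin. After median-ratio scaling the list had 8 higher and 5 lower, where 23.4% and 25.5% of all genes were higher and lower. The median of the list was then 0.09, against 0.02 over all genes, so it moved with the median of all genes. With that scaling and metformin replicate 1 left out the list had 17 higher and 7 lower, and with edgeR on exon reads of the same 11 libraries 16 and 7. Of all genes tested 33.9% were higher and 33.4% lower in the first of these, and 32.5% and 34.3% in the second. Both settings were chosen after seeing the data. The ATF4 list had 10 of 16 higher and 2 lower, with a median of 0.42. It included ATF4 itself (1.39, from 355 to 940.0 TPM), ATF3 (2.83, from 13.0 to 106 TPM) and SESN2, while DDIT3 (-0.48) and VLDLR (-0.41) were lower in TPM and did not pass after scaling.

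These counts moved with the scaling and with metformin replicate 1. After median-ratio scaling the arrest and feedback targets had 10 higher and 0 lower, the apoptosis targets 6 and 0, the repair and metabolism targets 4 and 5, the genes bound by p21 5 and 2, and the ATF4 list 12 and 0, read against 23.4% higher and 25.5% lower over all genes. Without metformin replicate 1, unscaled, the arrest and feedback targets had 9 higher and 2 lower, the apoptosis targets 6 and 6, the repair and metabolism targets 3 and 7 and the regulators 9 and 7. The genes bound by p21 then had 4 and 4, the DREAM list 4 and 13 and the ATF4 list 11 and 2, read against 17.1% and 49.5%.

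Over the 12 libraries, the genes outside these lists whose log2(TPM + 1) was most like that of CDKN1A were SAT1, MICA and FGF18, each with a Pearson r of 0.997 or 0.998 among 8892 genes at 5 TPM or more on average. SAT1, which encodes the rate-limiting enzyme of polyamine breakdown, went from 44.5 to 202 TPM, and MICA, a stress ligand of natural killer cells, from 25.9 to 47.9 TPM. Most like MDM4 were TTF1, RANBP6 and LIX1L, with r from 0.997 to 0.998, and RANBP6 went from 25.0 to 3.95 TPM. With only 2 conditions these values mostly reflect the step between control and metformin, and all points share the same libraries.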

How the data were processed

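The members and all gene lists were chosen with earlier results of these data known. The authors deposited 1 table per library, made from mRNA libraries sequenced on an Illumina NextSeq. Its TPM and RPKM values were computed by the authors, its counts are the deposited numbers of exon, intron and junction reads of each gene, and the fractions the authors deposited were not used. Aligner, counter and strand setting: not given in the sources used here. As builds, GRCm38 and mm10 (mouse) stand in the submitters' processing notes, but all 9 members carry human GENCODE 29 identifiers over the same genes. Positions are those of the tables.

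Rows sharing a symbol were summed. limma 3.58.1 (trended prior, R 4.3.3) was run on log2(TPM + 1), and on the log2 ratio of intron to exon reads with 0.5 added to each count. edgeR 4.0.16 (TMM, quasi-likelihood) was run on intron and junction counts. Condition was the only term, and p-values were adjusted by Benjamini-Hochberg over all genes tested. Genes with a mean of at least 10 reads entered the count tests. DESeq2 1.42.0, other scalings, pseudocounts and filters, RPKM, a replicate block and leaving out each library were alternatives, and 2 without metformin replicate 1 were added after seeing the data. Scripts were tested on simulated data. No replicate pair differed by less than the sampling noise. The chi-square of exon reads per degree of freedom ran from 2.33 to 50.2 between controls. It ran from 3.82 to 73.9 among metformin replicates 2 to 6, and from 208 to 435 between these and metformin replicate 1. In each list the called genes with the smallest p were named, up to 3 in each direction, besides the members and a few relatives and regulators of p53, and some genes of the lists are not reported here. Python 3.11.15 was used for tables.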

Additional observations from a re-analysis of the deposited data

Results flagged for a closer look

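Each group of 6 libraries was checked for a library far from the others in the TPM of the genes named and in the intron and junction figures of the members. Of 136 groups 26 had one, where chance gives about 7, and in 23 of the 26 it was metformin replicate 1. In this library the junction reads per 100 exon reads were 0.869 for CDKN1A, 3.79 for GDF15, 5.63 for PHLDA3, 1.98 for ZMAT3, 13.8 for PLK2 and 7.08 for PPM1D, each below all other metformin libraries. Its intron reads per 100 exon reads were 7.23 for MDM2 and 16.2 for PPM1D, above the others, and 0.690 for GDF15 and 0.307 for PLK2, below them. Its normalised PLK2 intron reads were 16.1. In TPM it was below the other metformin libraries for CDKN1A (793), AEN (168), ATF4 (745), CCNA2 (32.6), CCNB2 (85.3), CHEK2 (4.86), DRAM1 (27.2), GADD45A (81.6), MDM1 (0.399), SESN2 (61.3) and VLDLR (0.349), and above them for DDIT3 (13.2). The cause was not tested.

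The other 3 were control libraries. PHLDA3 had 59.2 normalised intron reads in control replicate 5, against 37.3 to 44.8 in the other controls, and 8.54 junction reads per 100 exon reads in control replicate 3. COP1 stood at 22.3 TPM in control replicate 6, against 24.4 to 25.6 in the other controls.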

How the results depend on the processing

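Of 618 fold changes of the 9 genes under all alternatives, 579 kept their direction and their side of the threshold. In TPM the count of members higher rose from 5 to 8 with median-ratio scaling, quantile normalization, edgeR and DESeq2 on exon reads, limma array weights, and both settings added after seeing the data; leaving out 1 library gave 5 to 8, with 8 only without metformin replicate 1. Genes higher in TPM numbered 905, and 2649 with median-ratio scaling, 2342 with quantile normalization, 2768 with edgeR, 3267 with DESeq2, 2754 with array weights (8598 called in all), 1642 with no filter, 3840 with scaling and 3676 with edgeR once metformin replicate 1 was left out, and 801 to 1936 leaving out 1 library. Genes lower numbered 4725, and 2887, 3073, 2937 and 2987 with median-ratio scaling, quantile normalization, edgeR and DESeq2. In junction reads, leaving out 1 library gave 2366 to 5216 calls (1007 to 2584 higher, 1359 to 2632 lower), and DESeq2 gave 1988 higher. In the intron to exon ratio it gave 2779 to 5745 calls (1497 to 3511 higher, 1139 to 2234 lower), each highest without metformin replicate 1, and a filter of 50 reads gave 2179 calls with 802 lower. That filter left MDM4 and TP53INP1 untested, and TP53INP1 had too few intron reads to be tested without any 1 of metformin replicates 2 to 6. The intron to exon difference of GDF15 ran from -0.17 to 0.18 and that of PPM1D from -0.39 to 0.19 leaving out 1 library, both around 0. The cause of these changes was not tested. Deviations of same-numbered samples from their group means had correlations of both signs, from -0.64 to 0.73. They were not compared with those of differently numbered samples, so whether the numbers pair the samples was not settled. With a replicate block 7 members were called in TPM (5685 genes in all), 8 in intron reads (6424 of 11118 genes) and 7 in junction reads (2239 genes). The block added PLK2 in TPM (adjusted p = 0.041) and took TP53INP1 from the junction calls (adjusted p = 0.060), and changed no other call of the members.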
